A study of Mus musculus with 16 samples.

Results

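The 10 genes described here are Xbp1, Herpud1, Dnajb9, Hspa5, Sdf2l1, Dnajc3, Hyou1, Pdia4, Manf and Creld2, which encode chaperones and cofactors of the endoplasmic reticulum (ER) and XBP1, a transcription factor that acts on many ER genes. They were taken by symbol from a deposited table of 54532 genes, and all 10 were found. The table holds RNA-seq counts from microglia sorted from mouse retinas at postnatal day 17. There were 8 libraries from mice with oxygen-induced retinopathy (OIR), a model in which young mice are exposed to high oxygen and abnormal retinal vessels then grow, and 8 libraries from nonOIR mice. All 16 libraries came from Cx3cr1CreERT2:Rosa26-tdTomato reporter mice given tamoxifen on postnatal day 1. In these mice a tamoxifen-dependent Cre under the Cx3cr1 promoter, which is active in microglia and in other mononuclear phagocytes, switches on the red reporter tdTomato. The sort kept cells that were CD45low, CD11b+ and Tom+ and that lacked Ly6C and Ly6G. The labels carry a lane code, 1 for 5 libraries of each group and 2 for 3 libraries of each group, and do not say whether the codes also mark separate preparations. They do not say either whether each library came from a separate animal, so a p-value covers only the spread among the 16 libraries, which may be technical.

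Proteins that enter the ER are folded there by chaperones, and a surplus of unfolded protein sets off the unfolded protein response. Its sensors IRE1, PERK and ATF6 lie in the ER membrane. IRE1 splices the Xbp1 messenger into the form that encodes the active factor, and XBP1 and ATF6 then raise the transcription of chaperone genes and of genes for ER-associated degradation (ERAD), which sends misfolded proteins to the proteasome. In microglia, as in other macrophages, the same pathway bears on secretion and on inflammatory output. The counts are per gene, so the spliced and unspliced forms of Xbp1 could not be separated.

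The response works partly through short promoter sequences, and the stretches that hold them are shown here for the members whose RNA levels are given further on. They were read from the RefSeq promoter table of build GRCm38.p6, which had an entry for 8 of the 10 genes (not for Hyou1 or Manf), over the 250 bases before each gene's start and on both strands. The ER stress element, CCAAT and CCACG set 9 bases apart, was found in 3 members, Hspa5, Dnajc3 and Creld2, and in 0.113% of all 32851 promoters (37 promoters). A second form, ERSE-II (ATTGG and CCACG set 1 base apart), was found in Herpud1 and in 0.0304% of promoters (10 promoters). TGACGTG, the core of the element bound by XBP1 and ATF6, was found in Hspa5 and in 1.65% of promoters (542 promoters). Capitals mark the matches in these stretches, each given 5′ to 3′ on the gene's own strand.
Herpud1, ERSE-II at 52 to 42 bases upstream, chr8:94386352-94386412, plus strand: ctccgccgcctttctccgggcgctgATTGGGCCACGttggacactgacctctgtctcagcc
Hspa5, ER stress element at 65 to 47 bases upstream, chr2:34772020-34772048, plus strand: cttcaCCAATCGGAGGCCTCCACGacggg
Hspa5, TGACGTG at 157 to 151 bases upstream, chr2:34771908-34771964, plus strand: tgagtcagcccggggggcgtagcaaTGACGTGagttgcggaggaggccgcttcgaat
Dnajc3, ER stress element at 105 to 87 bases upstream, chr14:118937802-118937870, plus strand: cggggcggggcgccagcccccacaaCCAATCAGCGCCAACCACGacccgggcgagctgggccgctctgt
Creld2, ER stress element on the opposite strand at 126 to 108 bases upstream, chr15:88819495-88819563, plus strand: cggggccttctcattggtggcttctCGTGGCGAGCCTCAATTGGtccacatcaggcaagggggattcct
The Hspa5 element also lies in an annotated exon of another Hspa5 transcript. The short motif CCACG, which forms the end of both ER stress elements, was found in 6 of the 8 promoters and in 28.3% of all promoters. Dnajb9 and Sdf2l1 held CCACG and none of the longer motifs, and Xbp1 and Pdia4 held none of the 4. A match is a description of these letters and shows no binding.

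Library totals ran from 13591651 to 30001463 counts, with means of 25119533 ± 3239502 counts in OIR and 22313476 ± 4280570 counts in nonOIR libraries (SD, n = 8 each; exact two-sided permutation test, p = 0.163). Levels are given as CPM, the counts scaled to a common library total, after TMM scaling, a scaling of library sizes that limits the weight of the most changed genes. Fold changes are OIR over nonOIR on the log2 scale with their standard errors, and p-values come from edgeR (its quasi-likelihood test), adjusted by Benjamini and Hochberg's method over the 12496 genes tested. Of those genes, 798 were higher and 570 lower in OIR at an adjusted p under 0.05. With library size alone as the scaling, 1020 were higher and 364 lower.

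OIR microglia held less RNA of Xbp1, Herpud1 and Dnajb9 than nonOIR microglia, each by about the same proportion, and none of the other 7 genes passed the test. Thus 3 of the 10 members fell, against 4.56% of all genes tested, and 0 rose, against 6.39%. At an unadjusted p under 0.05 by edgeR's test, 1 member was higher and 3 were lower. No share of all genes at an unadjusted p under 0.05 was taken for any test. DESeq2 and limma-voom each called 0 members higher and 3 lower. Over all genes tested, DESeq2 called 1080 higher and 779 lower, and limma-voom 709 higher and 582 lower. The median log2 fold change over the 10 was -0.02, beside -0.03 over all genes tested. In bulk libraries, fewer cells of a type and less RNA per cell cannot be told apart.

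Xbp1 (ENSMUSG00000020484; mm10 chromosome 11, 5520659 to 5525893, plus strand) was at 396 CPM in the lowest, 438 at the median and 490.1 in the highest OIR library, against 525, 585 and 678 CPM in nonOIR libraries. All 8 OIR libraries lay below all 8 nonOIR libraries. Its mean was 438 ± 37.1 CPM in OIR and 592 ± 51.6 CPM in nonOIR (SD, n = 8 each), a log2 fold change of -0.43 ± 0.07 (SE; 95% interval -0.58 to -0.28; ratio 0.740; edgeR's quasi-likelihood test, adjusted p = 0.000882).

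Herpud1 (ENSMUSG00000031770; chromosome 8, 94386438 to 94395377, plus strand) encodes an ER membrane protein of the ERAD complex. It was at 198, 230.0 and 257 CPM in the lowest, median and highest OIR libraries, against 298, 319 and 338 CPM in nonOIR libraries. The groups again did not overlap. Its log2 fold change was -0.47 ± 0.07 (95% interval -0.61 to -0.32; ratio 0.723; edgeR's quasi-likelihood test, adjusted p = 0.000435). The spread of Herpud1 between libraries was 10.0% of the mean in OIR and 4.03% in nonOIR; this difference in spread was not tested.

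Dnajb9 (ENSMUSG00000014905; chromosome 12, 44205559 to 44210326, minus strand) encodes ERdj4, an ER co-chaperone of HSPA5 that also restrains IRE1. It was at 47.6, 54.2 and 60.4 CPM in the lowest, median and highest OIR libraries, against 65.3, 69.4 and 93.7 CPM in nonOIR libraries. The highest OIR library stayed below the lowest nonOIR library, and the top 3 nonOIR values were those of lane 2. Its log2 fold change was -0.47 ± 0.09 (95% interval -0.67 to -0.28; ratio 0.72; edgeR's quasi-likelihood test, adjusted p = 0.00334). Across all genes tested, 0.688% were lower in OIR with no overlap between the groups (86 genes), and these 3 members are among them. Another 1.34% were higher without overlap, which makes 2.02% in either direction, and 0 members were higher without overlap.

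**Figure D1:**
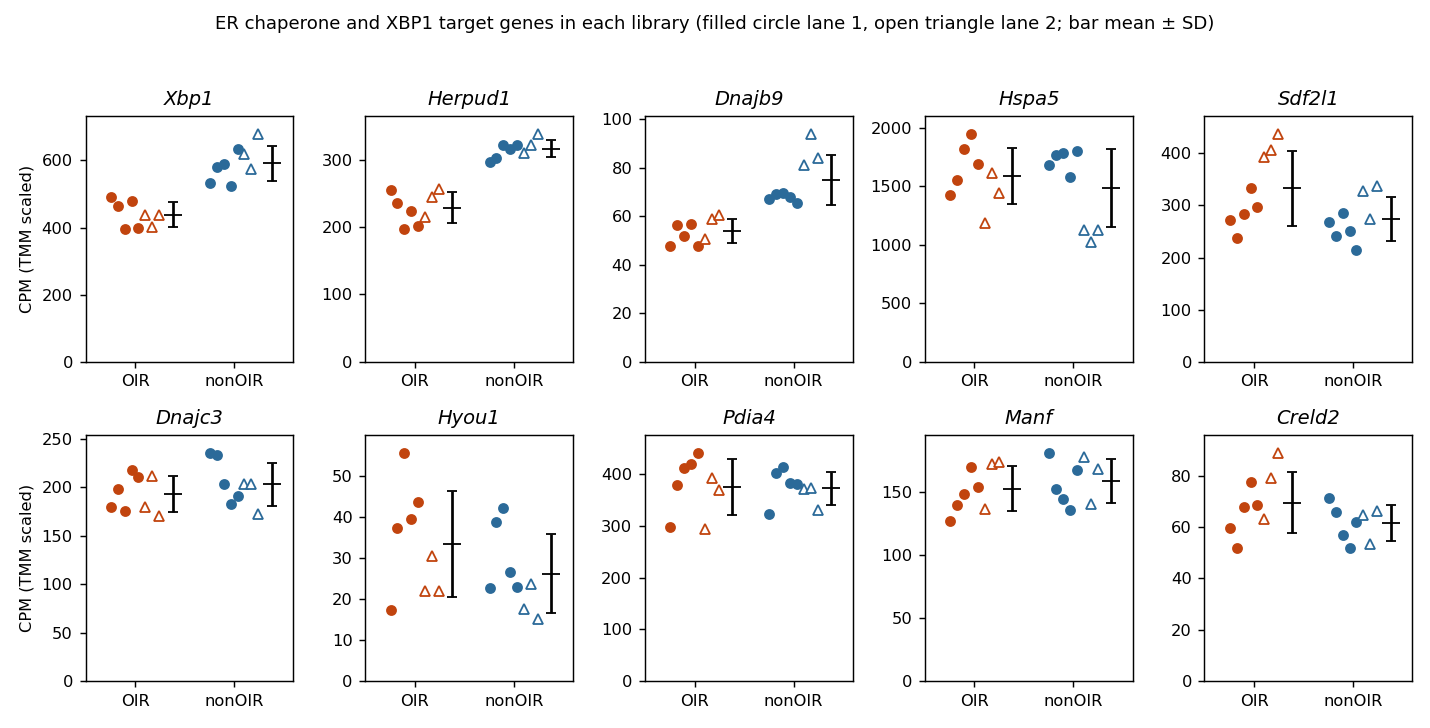
TMM-scaled CPM of the 10 genes in each library, with OIR to the left of nonOIR and the lane codes marked by symbol. The OIR points of Xbp1, Herpud1 and Dnajb9 all lie below the nonOIR points, and the groups overlap for the other 7 genes.

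The 3 falls were present in both lanes. In lane 1, with 5 libraries a group, the log2 fold changes by edgeR's quasi-likelihood test were -0.35 for Xbp1 (adjusted p = 0.0336), -0.48 for Herpud1 (adjusted p = 0.00775) and -0.37 for Dnajb9 (adjusted p = 0.0408). All 3 of these members passed in the direction in which 1.13% of genes tested in lane 1 did. In lane 2, with 3 libraries a group, they were -0.51 for Xbp1 (adjusted p = 0.00723), -0.39 for Herpud1 (adjusted p = 0.0261) and -0.56 for Dnajb9 (adjusted p = 0.0192), and 5.77% of genes tested there were lower. In the authors' deposited table, which holds their own test, the log2 fold changes were -0.42 for Xbp1, -0.45 for Herpud1 and -0.45 for Dnajb9, with adjusted p-values of 1.61e-07, 9.9e-10 and 3.67e-05. The authors' deposited table called 6.25% of its genes lower and 8.16% higher at an adjusted p under 0.05. It called 0 members higher, and the adjusted p-values of the other 7 members in it ran between 0.157 and 0.925.

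**Figure D2:**
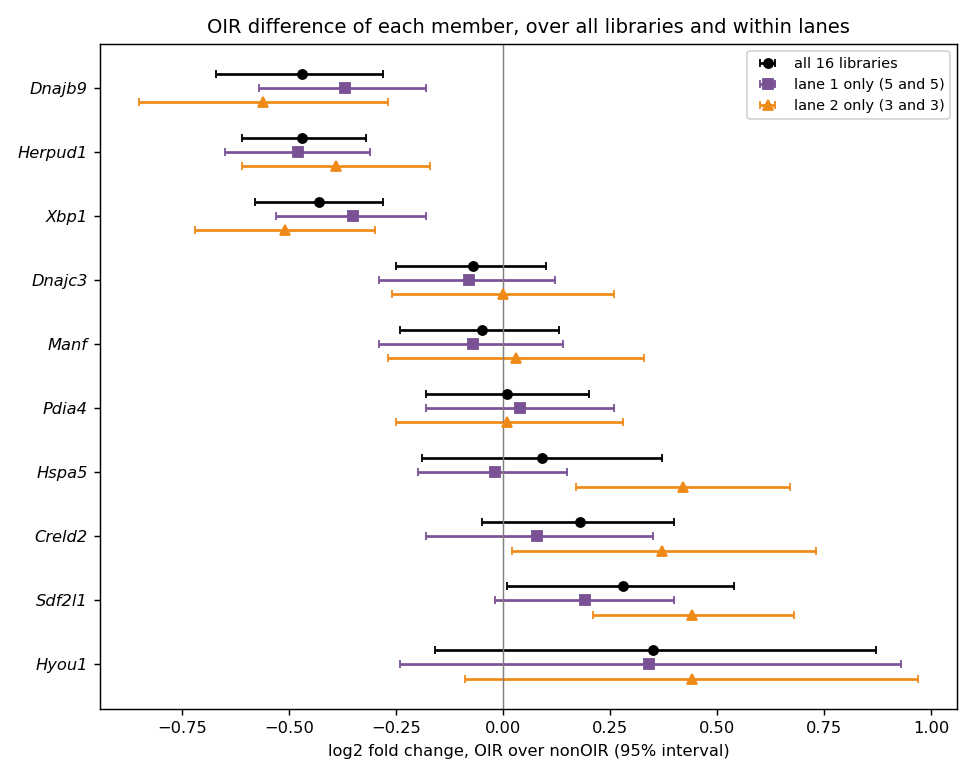
Log2 fold change of OIR over nonOIR for each gene, from all 16 libraries and within each lane, with 95% intervals. Xbp1, Herpud1 and Dnajb9 lie below 0 in all 3 fits, and Hspa5 lies near 0 in lane 1 and at 0.42 in lane 2.

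Among the chaperones, Hspa5 (ENSMUSG00000026864; chromosome 2, 34771970 to 34777547, plus strand) encodes BiP, the main HSP70 of the ER. It was at 1186, 1585 and 1946 CPM in the lowest, median and highest OIR libraries, against 1025, 1633 and 1807 CPM in nonOIR libraries. The groups overlapped widely, and the log2 fold change was 0.09 ± 0.13 (95% interval -0.19 to 0.37; edgeR's quasi-likelihood test, adjusted p = 0.729).

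Hspa5 split by lane. In lane 1 it was at 1423 to 1946 CPM in OIR and 1579 to 1807 CPM in nonOIR libraries, while in lane 2 it was at 1186 to 1612 CPM in OIR and 1025 to 1131 CPM in nonOIR libraries. The OIR libraries thus overlapped the nonOIR ones in lane 1 and lay above them in lane 2, which held 3 libraries a group. How many of all genes lay apart in this way in lane 2 was not counted. By edgeR's quasi-likelihood test the log2 fold change was -0.02 in lane 1 (adjusted p = 0.935) and 0.42 in lane 2 (adjusted p = 0.033). In lane 2, 9.63% of genes tested were higher in OIR. The difference between the lanes was 0.40 ± 0.14 on the log2 scale (unadjusted p = 0.012, edgeR's quasi-likelihood adjusted p = 0.208) and did not pass the test. Over all genes, 0.496% passed that test of a difference between lanes, and 0 of the 10 members did; at an unadjusted p under 0.05, edgeR's test gave 1 member, Hspa5.

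Sdf2l1 (ENSMUSG00000022769; chromosome 16, 17130138 to 17132383, minus strand) encodes a soluble ER protein found in complexes with ER DnaJ co-chaperones. It was at 238, 316 and 437 CPM in the lowest, median and highest OIR libraries, against 214, 271 and 337 CPM in nonOIR libraries. In 7 of 8 OIR libraries it was above the nonOIR median, and the groups overlapped. The log2 fold change was 0.28 ± 0.13 (95% interval 0.01 to 0.54; edgeR's quasi-likelihood test, adjusted p = 0.177).

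Sdf2l1 was also read within each lane. Its OIR difference was 0.22 ± 0.15 larger in lane 2 on the log2 scale (unadjusted p = 0.174, edgeR's quasi-likelihood adjusted p = 0.597). That difference between the lanes did not pass the test. Lane 2 held 3 libraries a group. There Sdf2l1 was at 392 to 437 CPM in OIR and 274 to 337 CPM in nonOIR libraries, without overlap. The share of all genes without overlap in lane 2 was not taken. In lane 1 it was at 238 to 334 CPM in OIR and 214 to 285 CPM in nonOIR libraries, with overlap. Within lane 2 the log2 fold change was 0.44 (edgeR's quasi-likelihood test, adjusted p = 0.0201), and 9.63% of genes tested there were higher in OIR. Within lane 1 it was 0.19 (adjusted p = 0.366), and 2.2% of genes tested there were higher. With the lane as a term in the fit of all 16 libraries, the log2 fold change was 0.26 (edgeR's quasi-likelihood test, adjusted p = 0.0246), so that Sdf2l1 passed the test there. Over all genes, 1210 of 12496 passed as higher in that fit.

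In the same fit, 4 members differed between the lanes themselves, lane 2 over lane 1, by edgeR's quasi-likelihood test. Sdf2l1 was higher in lane 2, by 0.42 ± 0.08 on the log2 scale (adjusted p = 0.000634), and so was Dnajb9, by 0.24 ± 0.08 (adjusted p = 0.0272). Hspa5 had a log2 difference of -0.45 ± 0.09 (adjusted p = 0.000794) and Hyou1 one of -0.67 ± 0.21 (adjusted p = 0.0234). Across all genes tested, 11.0% were higher and 13.8% lower in lane 2, so such a difference was common.

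The other HSP70 of the ER, Hyou1 (ENSMUSG00000032115; chromosome 9, 44379490 to 44392369, plus strand), which exchanges nucleotide on HSPA5, varied most between libraries. It was at 17.3, 33.8 and 55.5 CPM in the lowest, median and highest OIR libraries, against 15.1, 23.3 and 42.3 CPM in nonOIR libraries. The spread was 38.8% of the mean in OIR and 36.7% in nonOIR, and the log2 fold change of 0.35 ± 0.25 (95% interval -0.16 to 0.87) did not pass edgeR's quasi-likelihood test (adjusted p = 0.408).

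Dnajc3 (ENSMUSG00000022136; chromosome 14, 118937976 to 118981697, plus strand) encodes P58IPK, an ER co-chaperone of HSPA5. It ranged over 170.2 to 218 CPM in OIR and 172 to 235 CPM in nonOIR libraries, with a log2 fold change of -0.07 ± 0.08 (95% interval -0.25 to 0.10; edgeR's quasi-likelihood test, adjusted p = 0.632). Pdia4 (ENSMUSG00000025823; chromosome 6, 47796141 to 47813430, minus strand) encodes a protein disulfide isomerase, which forms and rearranges disulfide bonds. It ranged over 293 to 440.2 CPM in OIR and 324 to 413 CPM in nonOIR libraries, with a log2 fold change of 0.01 ± 0.09 (95% interval -0.18 to 0.20; edgeR's quasi-likelihood test, adjusted p = 0.962). Neither passed the test. The lower ends of their intervals lie above the fold changes of Xbp1, Herpud1 and Dnajb9.

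Manf and Creld2 encode secreted or ER-resident stress proteins. Manf (ENSMUSG00000032575; chromosome 9, 106838312 to 106891979, minus strand) was at 127 to 174 CPM in OIR and 136 to 181 CPM in nonOIR libraries, a log2 fold change of -0.05 ± 0.09 (95% interval -0.24 to 0.13; edgeR's quasi-likelihood test, adjusted p = 0.765). Exons of Manf share 326 bases with other annotated genes, among them Dcaf1 on the opposite strand and Rbm15b on the same strand. Reads there cannot be told apart by strand, since the libraries keep no strand information and Rbm15b shares the strand of Manf. Creld2 (ENSMUSG00000023272; chromosome 15, 88819646 to 88826683, plus strand) was at 51.8 to 88.7 CPM in OIR and 51.8 to 71.6 CPM in nonOIR libraries. Its log2 fold change was 0.18 ± 0.11 (95% interval -0.05 to 0.40; edgeR's quasi-likelihood test, adjusted p = 0.336).

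Within a library, the reads of a falling member can be set against those of a chaperone, which needs no scaling between libraries. For every 100 reads of Hspa5, Xbp1 had 21.7, 27.3 and 36.9 reads in the lowest, median and highest OIR libraries, against 31.5, 34.2 and 59.9 reads in nonOIR libraries. These ranges overlapped. Of the 21 ratios of a member that fell to one that did not pass, 1 did not overlap between the groups, that of Dnajb9 to Sdf2l1, with 12.9 to 23.7 reads per 100 in OIR and 24.5 to 34.2 in nonOIR libraries. Within both lanes, 4 of the 21 did not overlap. The ratios were formed after the values had been seen and were not tested. Xbp1, Herpud1 and Dnajb9 already did not overlap in CPM, which favours ratios without overlap. No share over other pairs of genes was taken, so these counts have no background.

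**Figure D3:**
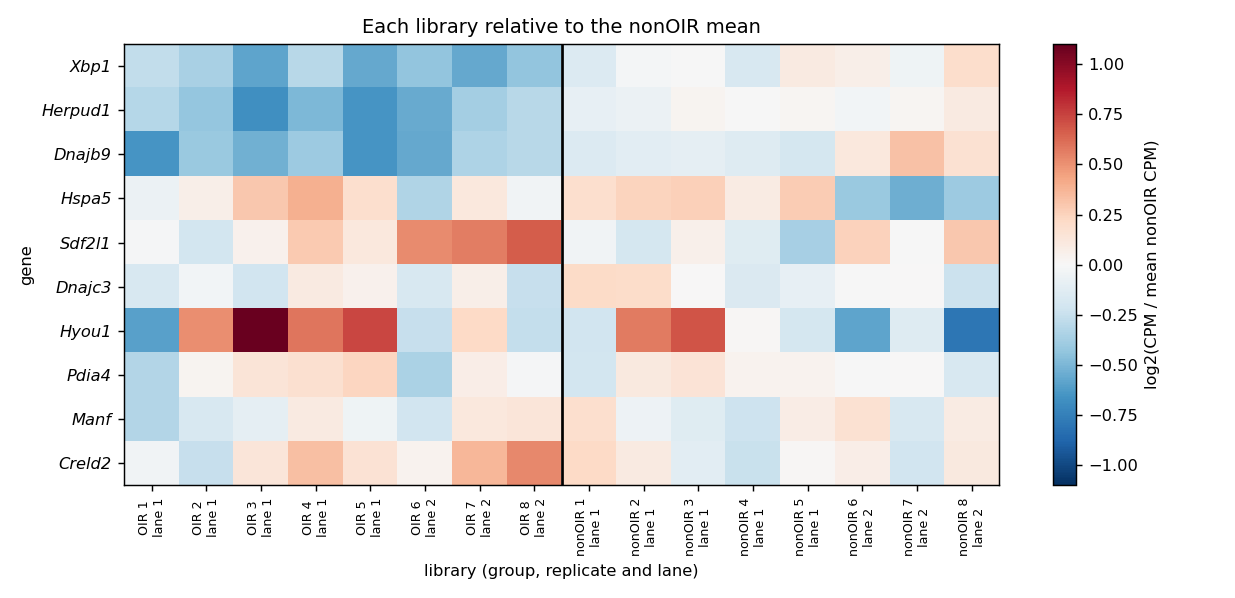
Log2 of each library's CPM (columns) over the mean nonOIR CPM of each gene (the 10 lines), with red above and blue below that mean and OIR libraries left of nonOIR libraries. Xbp1, Herpud1 and Dnajb9 are low in the 8 OIR libraries, and Hspa5 and Sdf2l1 change at the step between lane 1 and lane 2.

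Levels of different genes were compared per kilobase of exon, as CPM divided by the joined length of all annotated exons (GENCODE M21). That length can exceed the messenger made in these cells, which was not measured, so the order below depends on the annotation. Hspa5 was highest at 375 CPM per kb in OIR and 352 in nonOIR, followed by Sdf2l1 at 300.3 in OIR and 248 in nonOIR. Xbp1 averaged 135 CPM per kb in OIR and 182 in nonOIR, and Pdia4 averaged 157 in OIR and 155 in nonOIR. Herpud1 followed at 98.1 CPM per kb in OIR and 136 in nonOIR. Creld2, Manf and Dnajc3 lay between 37.5 and 50.9 CPM per kb in both groups. Dnajb9 was at 21.1 CPM per kb in OIR and 29.3 in nonOIR, and Hyou1 was lowest at 4.62 in OIR and 3.62 in nonOIR. In nonOIR libraries neighbours in this order overlapped, except Herpud1 above Creld2 and Dnajb9 above Hyou1. The order of Xbp1 and Pdia4 differed between the groups.

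**Figure D4:**
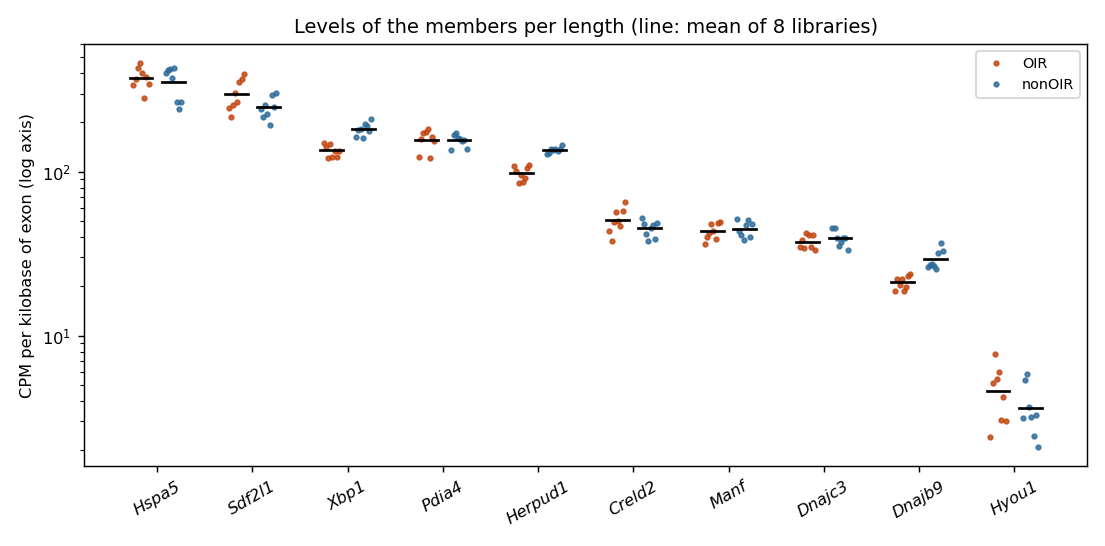
Level of each gene in CPM per kilobase of exon on a log axis, OIR left of nonOIR, with points for libraries and a line at the mean of 8. Hspa5 and Sdf2l1 lead in both groups and Hyou1 is lowest.

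Over the 16 libraries, after taking out the group means but not the lane, the members as a set shared little of a common profile. Pearson's r between members had a median of 0.0533 over 45 pairs and ran between -0.603 and 0.864. It was below 0 in 18 pairs and over 0.5 in 7. The highest values were those of Manf with Creld2 (0.864) and Hyou1 with Pdia4 (0.801). The part of the lane in these values was not tested. The genes most like the members' mean profile were Dnaja4 (Pearson's r = 0.80, Spearman's rho = 0.75), Lrrc14 (r = 0.79, rho = 0.776), Wdr47 (r = 0.761, rho = 0.812), 1700010I14Rik (r = 0.761, rho = 0.744) and Spata7 (r = 0.758, rho = 0.756). These points share their library and its lane, and the likeness is a description.

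The other genes of the pathway were grouped by role. Of 16 tested folding factors and oxidoreductases of the ER, 0 passed edgeR's test in either direction. Over all genes tested, 6.39% were higher and 4.56% lower, and a count this small cannot be set apart from those shares. The list's median log2 fold change was 0.09, beside -0.03 over all genes tested. At an unadjusted p under 0.05, 2 were higher and 0 lower. DESeq2 called 1 higher and limma-voom 0, beside 1080 and 709 over all genes tested. Higher genes of this list numbered 2 with the lane as a term, 2 with library size alone and 3 in lane 2 alone, where 9.63% of genes tested were higher. Ero1l, the oxidase that passes disulfide bonds to protein disulfide isomerases, averaged 31.7 ± 7.67 CPM in OIR and 22.8 ± 4.42 CPM in nonOIR (SD, n = 8 each), a log2 fold change of 0.48 ± 0.16 (edgeR's quasi-likelihood test, adjusted p = 0.0621). All 8 OIR libraries were above the nonOIR median of Ero1l. It passed with the lane as a term (edgeR's quasi-likelihood test, adjusted p = 0.0193) and by DESeq2 (adjusted p = 0.0307). Ero1l also passed in lane 2, with library size alone, with the replicate block and without OIR replicate 1, 3 or 5 (edgeR's quasi-likelihood test, adjusted p between 0.0195 and 0.0447). In lane 1 it did not (adjusted p = 0.367). Ppib, a prolyl isomerase, and Txndc5, a disulfide isomerase, had log2 fold changes of 0.13 ± 0.08 and 0.12 ± 0.07. Calr, the lectin chaperone calreticulin, averaged 1228 ± 178 CPM in OIR and 1042 ± 96.2 CPM in nonOIR, with an adjusted p of 0.107 by edgeR's quasi-likelihood test. By the same test it passed without OIR replicate 1 (adjusted p = 0.0185) and with the lane as a term (adjusted p = 0.0447). It also passed in lane 2 (adjusted p = 0.00644), with library size alone (adjusted p = 0.0369) and without OIR replicate 1 and nonOIR replicate 8 together (adjusted p = 0.0344).

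Of 15 tested ERAD genes, 3 fell and 0 rose, beside 4.56% lower and 6.39% higher over all genes tested, with a median log2 fold change of -0.08. At an unadjusted p under 0.05, for which no share over all genes was taken, edgeR's test gave 4 lower and 1 higher. DESeq2 and limma-voom each called 3 lower and 0 higher. Over all genes tested, DESeq2 called 779 lower and 1080 higher, and limma-voom 582 lower and 709 higher. The count of lower ERAD genes was 0 in lane 1 alone and 1 without a filter on low counts. Higher ERAD genes numbered 1 with the lane as a term and 2 in lane 2 alone. Selenos, a membrane protein that ties the p97 ATPase to the ER, averaged 247 ± 25.3 CPM in OIR and 346 ± 59.7 CPM in nonOIR, a log2 fold change of -0.49 ± 0.10 (edgeR's quasi-likelihood test, adjusted p = 0.00405). Edem2, which trims mannose from misfolded glycoproteins, averaged 445 ± 39.3 CPM in OIR and 548 ± 65.3 CPM in nonOIR (adjusted p = 0.0233). Derl1, part of the channel out of the ER, averaged 383 ± 44.1 CPM in OIR and 478 ± 67.3 CPM in nonOIR (adjusted p = 0.0345). Within lane 1 alone, Selenos (adjusted p = 0.10) and Edem2 (adjusted p = 0.208) did not pass edgeR's quasi-likelihood test. Edem2 did not pass without OIR replicate 6 (adjusted p = 0.0613) or OIR replicate 8 (adjusted p = 0.0539), nor without a filter on low counts (adjusted p = 0.0687). Derl1 did not pass without any 1 of OIR replicates 1 to 7 or nonOIR replicates 6, 7 and 8 (adjusted p between 0.0513 and 0.0802), nor within lane 1 (adjusted p = 0.0596), with library size alone (adjusted p = 0.151) or without a filter (adjusted p = 0.0767).

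Of 16 tested genes for entry into the ER, Sec61b, a subunit of the translocation channel, rose and Sec62, a channel partner, fell. These counts of 1 higher and 1 lower are near the shares over all genes tested, 6.39% higher and 4.56% lower. Sec61b averaged 42.2 ± 12.2 CPM in OIR and 26.8 ± 5.73 CPM in nonOIR, a log2 fold change of 0.66 ± 0.17 (edgeR's quasi-likelihood test, adjusted p = 0.0188). Sec62 averaged 117 ± 16.2 CPM in OIR and 148 ± 18.6 CPM in nonOIR (adjusted p = 0.0369), and did not pass without any 1 of OIR replicates 5 to 8 or nonOIR replicates 1 to 5 (adjusted p between 0.0507 and 0.0869). Nor did Sec62 pass edgeR's quasi-likelihood test in lane 1 (adjusted p = 0.0537), in lane 2 (adjusted p = 0.08), with library size alone (adjusted p = 0.0577) or without a filter (adjusted p = 0.0907). Srpr and Srprb, the subunits of the signal recognition particle receptor, had log2 fold changes of -0.14 ± 0.07 and -0.20 ± 0.10 and did not pass. Of 6 sensors and processing enzymes of the unfolded protein response, 0 passed edgeR's test in either direction, 0 had an unadjusted p under 0.05, and DESeq2 and limma-voom called 0. Ern1, which encodes IRE1, was at 12.5 ± 7.95 CPM in OIR and 16.6 ± 5.14 CPM in nonOIR (edgeR's quasi-likelihood test, adjusted p = 0.596). Atf6b, a relative of ATF6, and the proteases Mbtps1 and Mbtps2, which release ATF6, had log2 fold changes of 0.19 ± 0.12, -0.04 ± 0.12 and -0.15 ± 0.16.

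On the PERK branch, 7 of 8 genes were tested, 1 rose and 0 fell, beside 6.39% higher and 4.56% lower over all genes tested. A count this small cannot be set apart from those shares. Atf3, a stress-induced transcription factor that is also induced by other signals, was at 45.4, 66.8 and 120.0 CPM in the lowest, median and highest OIR libraries, against 24.1, 31.4 and 41.1 CPM in nonOIR libraries. The groups did not overlap, and the log2 fold change was 1.14 ± 0.17 (edgeR's quasi-likelihood test, adjusted p = 0.000435). Atf4, the factor translated when PERK is active, averaged 57.2 ± 7.89 CPM in OIR and 67.5 ± 6.97 CPM in nonOIR (adjusted p = 0.12), and passed as lower without OIR replicate 4 (adjusted p = 0.0341). Trib3, a target of ATF4, averaged 1.40 ± 1.09 CPM in OIR and 0.853 ± 0.560 CPM in nonOIR, and Ppp1r15a, which restarts translation, had a log2 fold change of -0.11 ± 0.20. Of 9 tested cytosolic heat shock genes, which answer to another stress pathway, 0 passed edgeR's test. Their median log2 fold change was 0.19. At an unadjusted p under 0.05, for which no share over all genes was taken, 3 were higher and 0 lower. DESeq2 called 1 of them higher and limma-voom 0, beside 1080 and 709 over all genes tested. Hsp90ab1 averaged 596 ± 101 CPM in OIR and 463 ± 105 CPM in nonOIR (edgeR's quasi-likelihood test, adjusted p = 0.0944), and it passed with the lane as a term (adjusted p = 0.0054). By edgeR's test it also passed in lane 2 (adjusted p = 0.00189), with the replicate block (adjusted p = 0.0301) and with library size alone (adjusted p = 0.0367). DESeq2 gave it an adjusted p of 0.0494. The mitochondrial chaperones of the same list, Hspd1 and Hspe1, and the HSP70 Hspa8 had log2 fold changes of 0.26 ± 0.11, 0.34 ± 0.16 and 0.23 ± 0.11. Hspa8 passed edgeR's quasi-likelihood test with the lane as a term (adjusted p = 0.0147), in lane 2 (adjusted p = 0.0158) and with the replicate block (adjusted p = 0.0366), and Hspd1 passed in lane 2 (adjusted p = 0.027). In lane 2 alone, 4 genes of this list passed as higher, as did 9.63% of all genes tested in that lane.

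**Figure D5:**
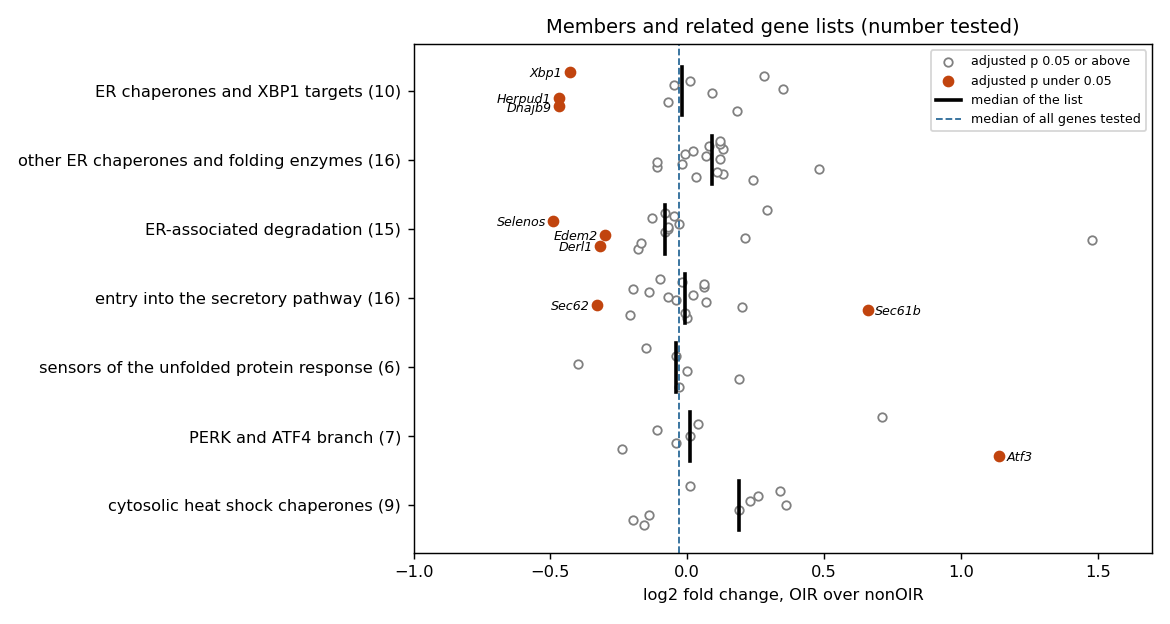
Log2 fold change of OIR over nonOIR for the 10 genes and for each related list, with genes that passed edgeR's test at an adjusted p under 0.05 filled. The ERAD genes that passed lie below 0, and Atf3 stands at 1.14 on the PERK branch.

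Markers of other cells in the sort were read beside these results. The counts of called markers stand beside 6.39% higher and 4.56% lower over all genes tested by edgeR's test. By DESeq2 they stand beside 1080 higher and 779 lower over all genes tested, and by limma-voom beside 709 and 582. For an unadjusted p under 0.05 no such share was taken. The summed microglial list (7 genes) was at 29000 to 51950 CPM in OIR and 53470 to 65920 CPM in nonOIR libraries, and 3 of its genes passed as lower, among them P2ry12 and Tmem119 (log2 fold changes -0.78 and -0.71). Cx3cr1, Csf1r, Itgam and Ptprc were tested and did not pass. Among 8 division genes 7 rose, with sums of 79.0 to 469 CPM in OIR and 26.0 to 58.6 CPM in nonOIR libraries. XBP1 is abundant in plasma cells; of 7 plasma and B cell markers 2 were tested and neither passed, Mzb1 was at 0 in all libraries, and the summed list was at 532 to 745 CPM in OIR and 562 to 744 CPM in nonOIR libraries. Ighm made up most of that sum, with 572 ± 57.1 CPM in OIR and 562 ± 57.7 CPM in nonOIR. Of 7 monocyte and neutrophil markers, Ly6c2 and Ly6g were at 0, 2 were tested and 0 passed edgeR's test (1 at an unadjusted p under 0.05, DESeq2 1 and limma-voom 0), with sums of 3.85 to 15.9 CPM in OIR and 4.43 to 8.13 CPM in nonOIR libraries. Of 4 tested Müller glia markers edgeR's test called 1 lower, Glul, with 3 lower at an unadjusted p under 0.05; DESeq2 called 3 lower and limma-voom 2. Rlbp1 and Slc1a3 had log2 fold changes of -1.34 ± 0.46 and -0.45 ± 0.15 (edgeR's quasi-likelihood test, adjusted p = 0.0674 and 0.0675), and all 8 OIR libraries lay below the nonOIR median for both. The remaining tested marker, Kcnj10, had one of -0.08 ± 0.38 (edgeR's quasi-likelihood test, adjusted p = 0.924). The sums of the Müller list were 239 to 365 CPM in OIR and 331 to 397 CPM in nonOIR libraries. Glul made up most of them, with means of 227 CPM in OIR and 285 CPM in nonOIR. The globin genes Hbb-bs and Hbb-bt, the 2 tested of 5 erythrocyte markers, passed as higher by edgeR's test and by DESeq2, while limma-voom called 0 of them. The sums of that list were 1.88 to 293 CPM in OIR and 0 to 28.6 CPM in nonOIR libraries. The sums of 6 rod markers were 31.9 to 347 CPM in OIR and 54.1 to 428 CPM in nonOIR libraries, and those of 5 endothelial markers were 8.05 to 37.5 CPM in OIR and 20.8 to 41.0 CPM in nonOIR libraries; edgeR's test called 0 genes in both lists, 0 had an unadjusted p under 0.05, and DESeq2 and limma-voom called 0. The part of the microglial, division, Müller and erythrocyte changes in the falls of Xbp1, Herpud1 and Dnajb9 was not tested.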

How the data were processed

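Cells were sorted and RNA was extracted by the submitters; per the labels' protocols, 750 pg of RNA was amplified over 12 cycles and sequenced as 50-base single reads. The amplification chemistry (SMARTer v4) keeps no strand. Per the submitters' processing notes, the build was mm10, and the tools, listed with no role, include DESeq2 (2.11.40.2), featureCounts (1.6.2), STAR (2.6.0b-1) and FastQC (0.72). The authors deposited 1 table with counts per gene, a second set of columns that equals these counts divided by 1 size factor per library (a normalized signal), and their own log2 fold changes, test scores (Wald statistics), standard errors and p-values. The deposited counts were analysed here in R 4.3.3 with edgeR 4.0.16 (filterByExpr, TMM, robust quasi-likelihood test, group alone in the design), which tested 12496 of 54532 genes at a biological coefficient of variation of 40.3%. Libraries were checked for repeats, and none agreed within sampling noise. Fits were tested on simulated data. CPM uses effective library sizes. Gene IDs matched GENCODE M21 (mm10) for 54495 genes, and sequences are from RefSeq (GRCm38.p6). The 10 genes, the related lists and the tests were chosen with earlier results of these data known. From each related list, up to 4 genes were named, those with the smallest p-values, so that their values are not typical of the list. Some genes of the lists are counted in them and are not reported here by name. PCR duplicates were not marked by molecular identifiers, so counts carry amplification error beyond counting error. Alternatives were DESeq2 1.42.0, limma-voom (limma 3.58.1), 3 other scalings, 2 other filters, a lane term, each lane alone, a replicate block and leaving out libraries. The lane differences were added after the lane values had been seen.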

Additional observations from a re-analysis of the deposited data

How the results depend on the processing

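Xbp1, Herpud1 and Dnajb9 stayed lower in OIR past the threshold in all 28 alternatives, with adjusted p-values of 9.66e-07 to 0.0336 for Xbp1, 2.33e-08 to 0.0261 for Herpud1 and 0.000121 to 0.0408 for Dnajb9. No member's call changed when any 1 of the 16 libraries was left out (3 lower and 0 higher each time), or without OIR replicate 1 and nonOIR replicate 8 together. Members higher in OIR numbered 0 in the reported fit, 1 with the lane as a term (Sdf2l1), 2 in lane 2 alone (Hspa5 and Sdf2l1) and 1 with the replicate block (Sdf2l1, edgeR adjusted p = 0.0473). Over all genes, 798 higher became 1210 with the lane as a term, 276 in lane 1 and 1260 in lane 2; 570 lower became 949 with the lane as a term, 141 in lane 1, 364 with library size alone and 343 without a filter. Leaving out 1 library gave 582 to 908 higher and 353 to 648 lower, the lowest count of lower genes being without OIR replicate 6. DESeq2 gave 1080 higher and 779 lower, limma-voom 709 and 582, upper-quartile scaling 675 and 647. Signs turned for genes that passed in neither setting: Hspa5 was at -0.02 in lane 1, Pdia4 at -0.02 with upper-quartile scaling and -0.02 to 0.07 with 1 library left out, Manf at 0.02 with library size alone and 0.03 in lane 2, Mbtps1 at 0.03 and 0.23 there and -0.11 to 0.01 with 1 library left out, Trib3 at -0.26 and Ppp1r15a at 0.14 in lane 1. The cause was not tested. Replicate numbers gave no clear pairing of the samples, though these correlations cannot exclude one. Deviations of same-numbered libraries from their group means, with the lane left in, correlated at -0.0187 to 0.186 (2 of 8 over 0.1). Of the 8 OIR libraries, 2 correlated best with their own number, replicates 6 and 7, both of lane 2. The block gave 965 higher and 714 lower genes. Hyou1, at 15.1 to 55.5 CPM, had the widest interval among the members.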
